A study of Homo sapiens with 4 samples.

Results

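A set of 10 genes of the Wnt pathway, DKK1, WNT5A, LRP5, LRP6, RNF43, ZNRF3, AXIN1, AXIN2, CTNNB1 and TCF7L2, was examined in 2 pancreatic cancer cell lines before and after X-ray irradiation. The genes were taken by name from a table of 58174 genes with an Ensembl identifier, and the set was selected on measured values, the counts of DKK1 in the 4 libraries, which rose after irradiation in 1 line only. The lines were SW1990 and PANC-1, both established from human pancreatic cancers, and each was sequenced unirradiated (0 Gy) and irradiated with 10 Gy of X-rays. There was 1 library per line and condition, 4 libraries in all, so no value below has a replicate of its own condition. SW1990 cells grew in 1640 medium and PANC-1 cells in DMEM, both with fetal bovine serum, so line and medium cannot be told apart. Each line stands for 1 culture line. The study sequenced these cells while asking how tumour cells that die after irradiation act on the survivors. The time between irradiation and RNA collection is not given in the sources used here.

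The counts assigned to named genes summed to 17851815 in unirradiated SW1990 cells, 18305682 in irradiated SW1990 cells, 23323266 in unirradiated PANC-1 cells and 20026595 in irradiated PANC-1 cells. The floor used for genes without reads, 3 counts in a library, was worth 0.129 to 0.168 CPM (counts divided by the library total and rescaled). Levels of different genes were compared by FPKM, the deposited expression value scaled to transcript length and library size. An FPKM of 1 or more was reached by 14176 to 14873 genes, depending on the library.

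Markers of the labelled cell type were read first. The keratins KRT8, KRT18 and KRT19, structural proteins of epithelial cells, were abundant in all 4 libraries, with KRT8 at 1352 and 1888 FPKM in SW1990 cells and at 786 and 851 FPKM in PANC-1 cells, unirradiated and irradiated in that order. EPCAM, an epithelial adhesion protein, stood at 217 and 218 FPKM in SW1990 cells against 2.28 and 2.81 FPKM in PANC-1 cells. The 4 epithelial markers together summed to 2737 and 3475 FPKM in SW1990 and to 1402 and 1633 FPKM in PANC-1 cells. The 3 mesenchymal markers went the other way, with sums of 0.94 and 1.38 FPKM in SW1990 against 1647 and 1670 FPKM in PANC-1 cells, nearly all of it from the intermediate filament gene VIM. ZEB1, a repressor of epithelial genes, was at 0.314 and 1.33 FPKM in SW1990 and at 17.4 FPKM in both PANC-1 libraries. Of the 3 fibroblast markers, which summed to 2.96 and 3.88 FPKM in SW1990 and to 8.44 and 11.1 FPKM in PANC-1, the collagen gene COL1A1 was the most abundant in all libraries but unirradiated SW1990 (1.40 and 2.85 FPKM in SW1990 and 8.44 FPKM in unirradiated PANC-1). PDGFRB was at 1.56 and 1.03 FPKM in SW1990 and at 0 and 0.127 FPKM in PANC-1, and DCN was listed at 0 in all 4 libraries. The 2 endothelial markers summed to 0.309 FPKM or less and the 3 acinar markers to 0.604 FPKM or less. CD3E of T cells, CPA1 and CTRB1 of acinar cells and INS and GCG of islets were listed at 0 in all 4 libraries. The leukocyte sum of 18.8 and 13.9 FPKM in PANC-1 cells came from CD68, a lysosomal protein gene, while PTPRC was at 0 there. These epithelial, mesenchymal, fibroblast and leukocyte sums moved with every difference between the lines given below, and their part in those differences was not tested.

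In the canonical Wnt pathway, secreted Wnt proteins bind a Frizzled receptor together with the coreceptors LRP5 or LRP6, which switches off a destruction complex built on the axins and the APC protein. The protein beta-catenin, made from CTNNB1, then accumulates, enters the nucleus and works with TCF/LEF proteins such as TCF7L2 on target genes. Several targets, among them AXIN2, RNF43, ZNRF3 and DKK1, act back on the pathway as inhibitors, and in the pancreas inactivating mutations of RNF43 are known from tumours whose growth depends on Wnt ligands.

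DKK1 (ENSG00000107984, chr10:52314296-52318042 on GRCh38, plus strand) encodes Dickkopf-1, a secreted inhibitor that binds LRP5 and LRP6 and keeps Wnt from assembling its receptor. It had 69 counts in unirradiated and 215 counts in irradiated SW1990 cells, against 8153 counts in unirradiated and 7460 counts in irradiated PANC-1 cells. In FPKM these were 1.81 and 6.35 for SW1990 and 185.8 and 194.1 for PANC-1. Both PANC-1 libraries thus lay far above both SW1990 libraries, and the irradiated SW1990 library lay above the unirradiated one without coming near PANC-1. Among genes with an FPKM of at least 1, DKK1 ranked 253 of 14176 in unirradiated and 235 of 14559 in irradiated PANC-1 cells, but 12935 of 14873 and 8851 of 14808 in the SW1990 libraries.

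The rise of DKK1 in SW1990 cells was 3.16-fold, a log2 fold change of 1.66 (95% interval 1.26 to 2.07, counting error only). In PANC-1 cells the log2 fold change was 0.00 (95% interval -0.04 to 0.05). These are the values on which the gene was chosen, so they describe the libraries, and the call of DKK1 given below is part of that description. RNA of whole cultures cannot tell fewer cells expressing a gene from less RNA per cell, here or in any value below.

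The promoter of DKK1 is shown because DKK1 is both an inhibitor and a described target of the pathway. The 250 bases before its RefSeq start (GRCh38.p14, chr10:52314031-52314280, plus strand, read 5′ to 3′) are given with 3 matches in capitals. CTTTGAA and, further down, CTTTGTT are 2 of the 4 forms searched as TCF/LEF core on both strands, the other forms being CTTTGAT and, with the last bases exchanged, CTTTGTA. Their first bases lie 95 and 76 bases before the start, and neither overlaps another match. TATAAA is the TATA box sequence.
DKK1: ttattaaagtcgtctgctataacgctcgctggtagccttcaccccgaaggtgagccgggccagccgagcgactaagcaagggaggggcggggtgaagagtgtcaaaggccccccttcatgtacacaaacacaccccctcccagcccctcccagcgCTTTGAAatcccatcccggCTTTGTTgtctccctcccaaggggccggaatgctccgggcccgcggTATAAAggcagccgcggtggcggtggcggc
A TCF/LEF core was present in 12% of 35116 RefSeq promoter windows of the same length, and TATAAA in 10.7%. RefSeq windows were at hand for 7 of the 10 genes, 11 windows in all, and a TCF/LEF core was found for 2 of these genes, DKK1 and an alternative start of TCF7L2 (CTTTGTT, 133 bases before it). For comparison, the window at the outer start of RNF43 (chr17:58417535-58417784, minus strand) is printed, since RNF43 had the opposite pattern between the lines. It held neither motif, which says only that these letters are not in this window, and the same was true of the window at its inner start (chr17:58402722-58402971).
RNF43: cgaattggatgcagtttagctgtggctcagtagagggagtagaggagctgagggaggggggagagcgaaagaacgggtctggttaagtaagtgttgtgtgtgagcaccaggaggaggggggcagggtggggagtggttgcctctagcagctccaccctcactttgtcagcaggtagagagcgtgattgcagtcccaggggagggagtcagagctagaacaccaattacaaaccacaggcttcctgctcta
A match of letters is a description and does not show that a factor binds there.

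**Figure D1:**
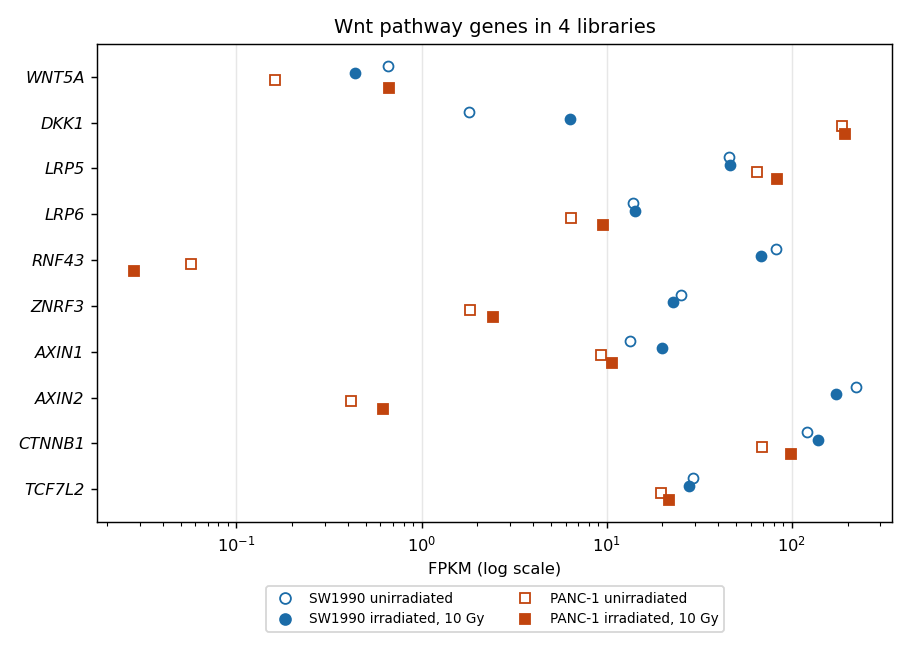
FPKM (log axis) of the 10 genes in the 4 libraries, with circles for SW1990, squares for PANC-1, open symbols for unirradiated and filled symbols for 10 Gy. DKK1 lies at 186 and 194 FPKM in PANC-1 and at 1.81 and 6.35 FPKM in SW1990, while RNF43 and AXIN2 lie at 68.0 FPKM or more in SW1990 and below 1 FPKM in PANC-1.

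WNT5A (ENSG00000114251, chr3:55465715-55490539, minus strand), a ligand best known for signalling without beta-catenin, was barely detected. It had 29 and 41 counts in the unirradiated and irradiated SW1990 libraries and 30 and 27 counts in the PANC-1 libraries. Its FPKM was 0.659, 0.436, 0.162 and 0.667 in the same order, below 1 throughout, and the lines overlapped. At this depth a change of WNT5A was not detectable from the counts: its log2 fold change after irradiation was 0.52 (95% interval -0.20 to 1.26) in SW1990 and -0.02 (95% interval -0.83 to 0.78) in PANC-1, and the sign turned in both lines when FPKM replaced the counts, to -0.60 and 2.04.

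The coreceptors were expressed in both lines. LRP5 (ENSG00000162337, chr11:68312609-68449275, plus strand) had 4531 and 4805 counts in SW1990 and 8676 and 9722 counts in PANC-1, unirradiated first, or 45.5 and 46.2 FPKM against 64.6 and 83.6 FPKM. LRP6 (ENSG00000070018, chr12:12116025-12267012, minus strand) had 2177 and 2104 counts in SW1990 and 1483 and 1657 counts in PANC-1, or 13.8 and 14.3 FPKM against 6.38 and 9.60 FPKM. The lines did not overlap for either gene, with LRP5 higher in PANC-1 and LRP6 higher in SW1990. After irradiation the log2 fold change of LRP5 was 0.11 (95% interval 0.05 to 0.16) in SW1990 and 0.29 (0.25 to 0.34) in PANC-1. That of LRP6 was -0.03 (-0.12 to 0.06) in SW1990, or 0.05 when FPKM replaced the counts, and 0.29 (0.19 to 0.39) in PANC-1.

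RNF43 and ZNRF3 are paired ubiquitin ligases at the cell surface that remove Frizzled receptors and so lower the response to Wnt. RNF43 (ENSG00000108375, chr17:58352500-58417595, minus strand) had 7515 and 6351 counts in SW1990, unirradiated and irradiated, against 10 and 4 counts in PANC-1. Its FPKM was 81.7 and 68.0 in SW1990 and 0.0569 and 0.0279 in PANC-1, the latter the lowest level among the 10 genes. ZNRF3 (ENSG00000183579, chr22:28883592-29057487, plus strand) had 3558 and 3306 counts in SW1990 and 344 and 325 counts in PANC-1, or 25.2 and 22.8 FPKM against 1.83 and 2.42 FPKM. Both ligases were thus high in both SW1990 libraries and low in both PANC-1 libraries. In SW1990 the log2 fold change after irradiation was -0.22 (95% interval -0.27 to -0.17) for RNF43 and -0.09 (-0.15 to -0.02) for ZNRF3. In PANC-1 it was 0.05 (-0.17 to 0.27) for ZNRF3, and the few counts of RNF43 gave -1.19 with an interval from -3.32 to 0.60. The gene models of RNF43 and SUPT4H1 overlap on the same strand, and SUPT4H1 had 1510, 1032, 838 and 458 counts over the 4 libraries, so reads of the shared stretch may be split between them. ZNRF3 likewise shares its strand with ZNRF3-IT1, at 145, 94, 16 and 13 counts, TCF7L2 with RPS15AP30, at 47 to 84 counts, and AXIN2 with AC004805.1, at 48 and 41 counts in SW1990 and 0 in PANC-1. On the opposite strand CTNNB1 overlaps ULK4, at 326 to 383 counts, and LRP6 overlaps BCL2L14, at 84 counts or fewer. Further genes on the opposite strand, AC007537.2 at LRP6, TSPOAP1-AS1 at RNF43, AL158212.2 at TCF7L2 and ZNRF3-AS1 at ZNRF3, had 19 counts or fewer, and how the counting used strand is not given in the sources used here.

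AXIN1 and AXIN2 are the scaffolds of the destruction complex, and AXIN2 is also a widely used readout of pathway activity. AXIN1 (ENSG00000103126, chr16:287440-352673, minus strand) had 935 and 1501 counts in SW1990 and 884 and 940 counts in PANC-1, or 13.4 and 19.9 FPKM against 9.36 and 10.7 FPKM. AXIN2 (ENSG00000168646, chr17:65528563-65561647, minus strand) had 12776 and 10327 counts in SW1990 and 24 and 51 counts in PANC-1, or 223 and 172 FPKM against 0.415 and 0.618 FPKM. AXIN1 was expressed in both lines, with SW1990 somewhat above PANC-1 by FPKM, while AXIN2 ranked 191 of 14873 and 253 of 14808 genes in SW1990 and lay below 1 FPKM in PANC-1. After irradiation AXIN1 was 1.63-fold higher in SW1990 (log2 0.70, 95% interval 0.58 to 0.82), with 0.22 (0.08 to 0.35) in PANC-1. AXIN2 had a log2 fold change of -0.29 (-0.32 to -0.25) in SW1990 and, on few counts, of 1.22 (0.49 to 1.98) in PANC-1, where FPKM gave 0.57.

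CTNNB1 (ENSG00000168036, chr3:41194837-41260096, plus strand), which encodes beta-catenin, had 6178 and 7102 counts in SW1990 and 4358 and 5498 counts in PANC-1, or 120 and 138 FPKM against 69.1 and 99.3 FPKM. TCF7L2 (ENSG00000148737, chr10:112950250-113167678, plus strand), the TCF protein that takes beta-catenin to DNA in many epithelia, had 1206 and 1366 counts in SW1990 and 1148 and 987 counts in PANC-1, or 29.1 and 27.7 FPKM against 19.7 and 21.6 FPKM. Both genes were readily expressed in the 4 libraries, and both stood above the PANC-1 range in SW1990 when measured in FPKM. After irradiation the log2 fold change of CTNNB1 was 0.22 (95% interval 0.17 to 0.27) in SW1990 and 0.47 (0.41 to 0.52) in PANC-1. For TCF7L2 it was 0.20 (0.09 to 0.31) in SW1990 and -0.09 (-0.21 to 0.04) in PANC-1, and the sign turned in both lines when FPKM replaced the counts.

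By FPKM, the order in SW1990 cells was AXIN2, CTNNB1, RNF43, LRP5, TCF7L2, ZNRF3, AXIN1, LRP6, DKK1 and WNT5A, from high to low. Of neighbours in that order, AXIN1 and LRP6 overlapped between the unirradiated and irradiated libraries. In PANC-1 cells the order was DKK1, CTNNB1, LRP5, TCF7L2, AXIN1, LRP6, ZNRF3, AXIN2, WNT5A and RNF43, and the overlapping neighbours were CTNNB1 with LRP5, AXIN1 with LRP6, and AXIN2 with WNT5A. DKK1 thus went from the ninth place in SW1990 to the top in PANC-1, and RNF43 from the third place to the bottom.

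**Figure D2:**
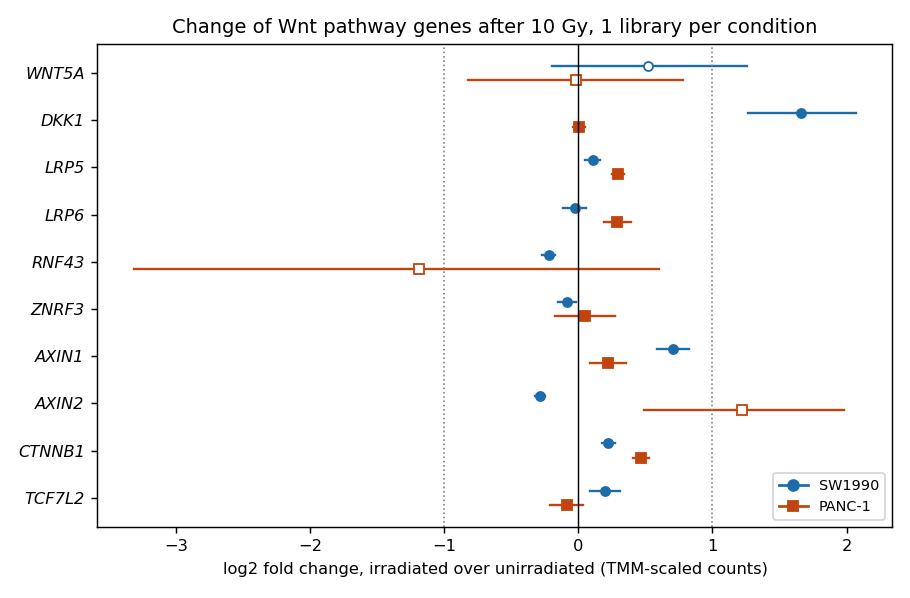
Log2 fold change of the 10 genes, irradiated over unirradiated, from TMM-scaled counts, with bars for 95% intervals that cover counting error only, circles for SW1990 and squares for PANC-1. Dotted lines mark a 2-fold change, open symbols mark genes not tested in that line, and among the filled symbols only DKK1 in SW1990, at 1.66, lies beyond them.

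To place these changes among all genes, the irradiated library of each line was set against the unirradiated one, and calls required a q-value below 0.001 together with a fold change of more than 2. The test reads the counts of 2 libraries, so it compares those libraries and not the conditions. In SW1990, 4.26% of 15731 genes tested were called, 388 higher and 282 lower, or 340 higher and 319 lower with total counts in place of TMM. Of the 10 genes, 9 reached an FPKM of 1 and 1 was called, DKK1, which the choice of genes had fixed. In PANC-1, 4.77% of 15159 genes were called, 367 higher and 356 lower, or 462 higher and 282 lower with total counts. Of the 10 genes, 7 were tested there and 0 were called, with either scaling. WNT5A was not tested in either line, and AXIN2 and RNF43 were not tested in PANC-1. DKK1 was the gene inside the 2-fold limit at 3.16-fold, and among those tested the nearest outside it was AXIN1 in SW1990 at 1.63-fold. When a coefficient of variation of 0.2 was assumed between replicates, DKK1 was no longer called and 0 of the 10 genes were.

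All 4 libraries were also fitted together, with terms for line and irradiation. For irradiation, the quasi-likelihood test of edgeR called 0% of 18180 genes at an adjusted p below 0.05, so 0 of the 10 genes were called. Of these genes, 833 had an unadjusted p under 0.05, which is 4.58%. DESeq2 called 39 genes, 11 higher and 28 lower, and limma on log2(FPKM + 1) called 1. The fit had 1 residual degree of freedom. It takes the change after irradiation to be the same in both lines, so a change in 1 line alone counts largely as scatter. For DKK1 it gave a log2 fold change of 0.71, so it cannot decide on the rise in SW1990. The median log2 fold change of the tested genes among the 10 was 0.11 in SW1990 and 0.22 in PANC-1. All genes tested had medians of 0.02 and -0.02. DKK1, whose counts chose the set, is among the tested genes, so these medians are a description. The other tested genes in SW1990 ran from -0.29 to 0.70.

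The rest of the pathway was read from 11 lists by role, 182 genes in all, which hold the 10 genes too. In SW1990, 10 of 122 list genes tested were called, 6 higher and 4 lower, DKK1 among them, which is 8.2% beside 4.26% of all genes tested. Of the 122, 5 reached an FPKM of 1 in 1 library alone, and 3 of these were called. Without them and DKK1, which the choice of genes fixed, 6 calls were left. The 8.2% thus holds calls fixed by the choice or the filter and is not read against the 4.26%. Among the list genes called, the largest rise was that of MYC, a growth-promoting transcription factor and Wnt target. It went from 94 to 505 counts (log2 2.45, 95% interval 2.13 to 2.78). MYC had 78 and 45 counts in the PANC-1 libraries, where it was not called. Also called higher in SW1990 were the ligands WNT7B, from 34 to 98 counts (log2 1.55), and WNT11, from 20 to 52 counts (log2 1.40). FOSL1, an AP-1 subunit, went from 337 to 730 counts (log2 1.14) and LGR6, a receptor for R-spondins, from 130 to 279 counts (log2 1.12). Among those called lower, the ligand gene WNT5B fell from 142 to 27 counts (log2 -2.37) and APCDD1, a membrane inhibitor of Wnt and target gene, from 511 to 220 counts (log2 -1.20). TCF7, a TCF/LEF family member, fell from 787 to 351 counts (log2 -1.14) and ASCL2, a transcription factor of intestinal stem cells, from 1493 to 719 counts (log2 -1.03). WNT7B, WNT11 and WNT5B reached an FPKM of 1 in only the higher of the SW1990 libraries, so they had to differ to be tested there and their values are a description. Of the 23 common target genes tested in SW1990, 3 were called higher and 3 lower, DKK1 among the former, which is 26.1%, with a median log2 of -0.08.

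In PANC-1, 6 of 113 list genes tested were called, 4 higher and 2 lower, which is 5.31% beside 4.77% of all genes tested. WNT5B rose from 339 to 787 counts (log2 1.35, 95% interval 1.16 to 1.53), the opposite of SW1990. NKD2, an inhibitor that binds Dishevelled, went from 106 to 207 counts (log2 1.10), the ligand gene WNT9A from 255 to 487 counts (log2 1.06) and CDH3, which encodes P-cadherin, from 48 to 91 counts (log2 1.05). CDH3 reached an FPKM of 1 in the irradiated library alone, so its value is a description. JUN, an AP-1 subunit, fell from 9220 to 3360 counts (log2 -1.33) and TMED2, a carrier protein of the early secretory pathway, from 3101 to 1142 counts (log2 -1.31). The receptor, destruction complex and beta-catenin-independent lists held 0 called genes, of 12, 22 and 17 tested in SW1990 and 11, 22 and 18 in PANC-1, and with 4.26% and 4.77% of all genes called few calls would fall in lists of this size. Of the list genes called, WNT5B alone was called in both lines, in opposite directions. With a coefficient of variation of 0.2 assumed between replicates, 2 list genes stayed called in SW1990, MYC and WNT5B, and 0 in PANC-1. With folds taken from FPKM, the calls of LGR6 and APCDD1 in SW1990 and of WNT5B and CDH3 in PANC-1 were lost, while BIRC5, named after its values were seen, was gained in PANC-1 (log2 1.17 from FPKM and 0.74 from counts), which left 8 and 5 list genes called.

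**Figure D3:**
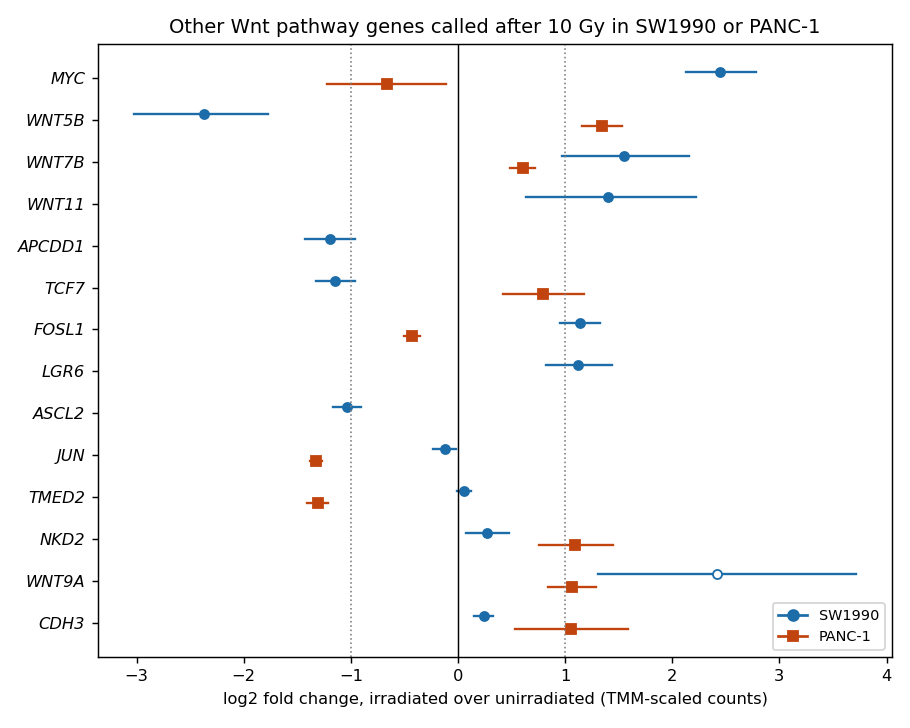
Log2 fold change, irradiated over unirradiated, of the Wnt list genes other than DKK1 called in SW1990 (circles) or PANC-1 (squares), with 95% intervals that cover counting error only and dotted lines at a 2-fold change. An open symbol marks a gene not tested in that line, genes with 0 counts in a library of a line have no symbol for it, and WNT5B is seen at -2.37 in SW1990 and at 1.35 in PANC-1.

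The lines were then compared with each other. The rule used the irradiation contrast, but this comparison reads the same 4 counts of DKK1, so the values of DKK1 are again a description, and the other genes were chosen with earlier results of these data known. The unirradiated and the irradiated libraries gave 2 comparisons that share no library. Among unirradiated libraries 17.3% of 16626 genes were called higher in SW1990 and 18.9% lower, and among irradiated libraries 17.3% of 16819 genes were called higher and 18% lower. Total counts in place of TMM gave 3552 higher and 2565 lower in the unirradiated comparison against 2874 and 3141 here, and moved the median log2 of all genes from -0.02 to 0.20. Of the 10 genes, 9 were tested in each comparison and the same 4 were called in both, RNF43, AXIN2 and ZNRF3 higher and DKK1 lower in SW1990. RNF43 and AXIN2 reached the expression limit in SW1990 alone and so had to differ, and the counts are given as a description.

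RNF43 was 838-fold higher in SW1990 without irradiation (log2 9.71, 95% interval 8.83 to 10.77) and 1642-fold higher after it (10.68, 9.32 to 12.56), on 10 and 4 counts in PANC-1. AXIN2 was 594-fold higher in SW1990 without irradiation (log2 9.21, 8.64 to 9.86) and 209-fold higher after it (7.71, 7.31 to 8.14). ZNRF3 was 11.5-fold and 10.5-fold higher. DKK1 was 106-fold lower in SW1990 without irradiation (log2 -6.73, -7.09 to -6.38) and 33.6-fold lower after it (-5.07, -5.27 to -4.87). RNF43, AXIN2 and ZNRF3, feedback inhibitors like DKK1, were thus high in the line in which DKK1 was low.

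The fit of 4 libraries, which takes the scatter between libraries into account, called 43.6% of 18180 genes for the line, so a call is common. The unirradiated and irradiated libraries of a line serve as its pair in this fit, and its p-values measure only the spread between these libraries. All 10 genes were tested in it and 7 were called by edgeR's quasi-likelihood test with Benjamini-Hochberg adjustment. For DKK1 (log2 -5.83), whose counts chose the set, and RNF43 (log2 10.06), which passed the filter on low counts through SW1990 alone, the values are a description. ZNRF3 (log2 3.47, adjusted p = 0.000804) and AXIN2 (8.39, adjusted p = 0.000967) were higher in SW1990. CTNNB1 (0.54, adjusted p = 0.0354) and LRP6 (0.56, adjusted p = 0.0445) were higher by less, and both calls were lost without the filter on low counts (adjusted p = 0.0688 and 0.0802). LRP5 (-0.87, adjusted p = 0.00932) was lower in SW1990. AXIN1 (0.49, adjusted p = 0.0932), TCF7L2 (0.38, adjusted p = 0.118) and WNT5A (0.39, adjusted p = 0.537) did not pass, which does not show that they were equal, and limma on log2(FPKM + 1) called AXIN1 (adjusted p = 0.03). Each called gene stood on the same side in both libraries of a line.

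**Figure D4:**
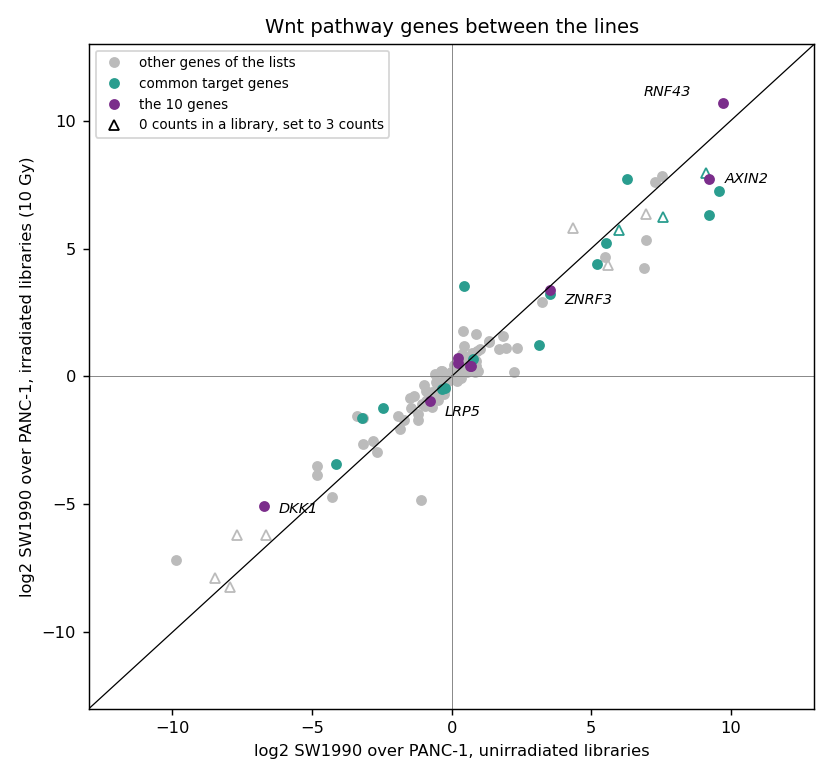
Log2 difference of SW1990 over PANC-1 for the Wnt list genes tested in both comparisons, unirradiated libraries on the x axis and irradiated libraries on the y axis, with triangles where a library had 0 counts and was set to 3. RNF43 and AXIN2 lie at the upper right and DKK1 at the lower left, and 54 genes of the lists were called in both comparisons, each in the same direction.

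Of the genes of the lists, 58 of 130 tested were called between unirradiated libraries and 63 of 132 between irradiated ones, which is 44.6% and 47.7% beside 36.2% and 35.3% of all genes tested, and 54 were called in both with the same sign, 29 higher and 25 lower in SW1990. Genes that reached the expression limit in 1 line alone made up 21 of the 31 higher and 11 of the 27 lower calls without irradiation. These 54 were 93.1% of the former and 85.7% of the latter. Over all genes 4442 of the 4476 called in both kept their sign, and the calls in both were 74.4% and 75.3% of each comparison. Of the 25 common target genes, 23 were tested without irradiation, with 14 called higher in SW1990 and 4 lower, 78.3% in all. Of the 14, 10 reached the expression limit in SW1990 alone and so had to differ, and of the genes at the limit in both lines 4 were called higher and 4 lower. With irradiation 14 of 22 were called higher and 4 lower, 81.8% in all, and 9 of the 14 reached the limit in SW1990 alone. RNF43, ZNRF3, AXIN2 and DKK1 belong to this list themselves.

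ASCL2 had 1493 and 719 counts in SW1990 and 0 counts in both PANC-1 libraries, so it was at least 555-fold and 248-fold higher in SW1990 against the floor of 3 counts per library. APCDD1, with 511 and 220 counts in SW1990 and 0 in PANC-1, was at least 190-fold and 75.8-fold higher. LGR5, an R-spondin receptor and stem cell marker, had 1078 and 768 counts in SW1990 and 2 and 10 counts in PANC-1 (log2 9.23, 95% interval 7.38 to 12.28, without irradiation and 6.31 after it). LEF1, a DNA-binding partner of beta-catenin, had 699 and 651 counts against 67 and 73 counts (log2 3.54 and 3.21). On the other side, CD44, a cell adhesion receptor named after its values were seen, had 968 and 1490 counts in SW1990 against 18973 and 16649 in PANC-1. JUN and FOSL1 were also called lower in SW1990. DKK1 thus sat with CD44, JUN and FOSL1 and apart from RNF43, ZNRF3 and AXIN2 among genes of the same list.

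**Figure D5:**
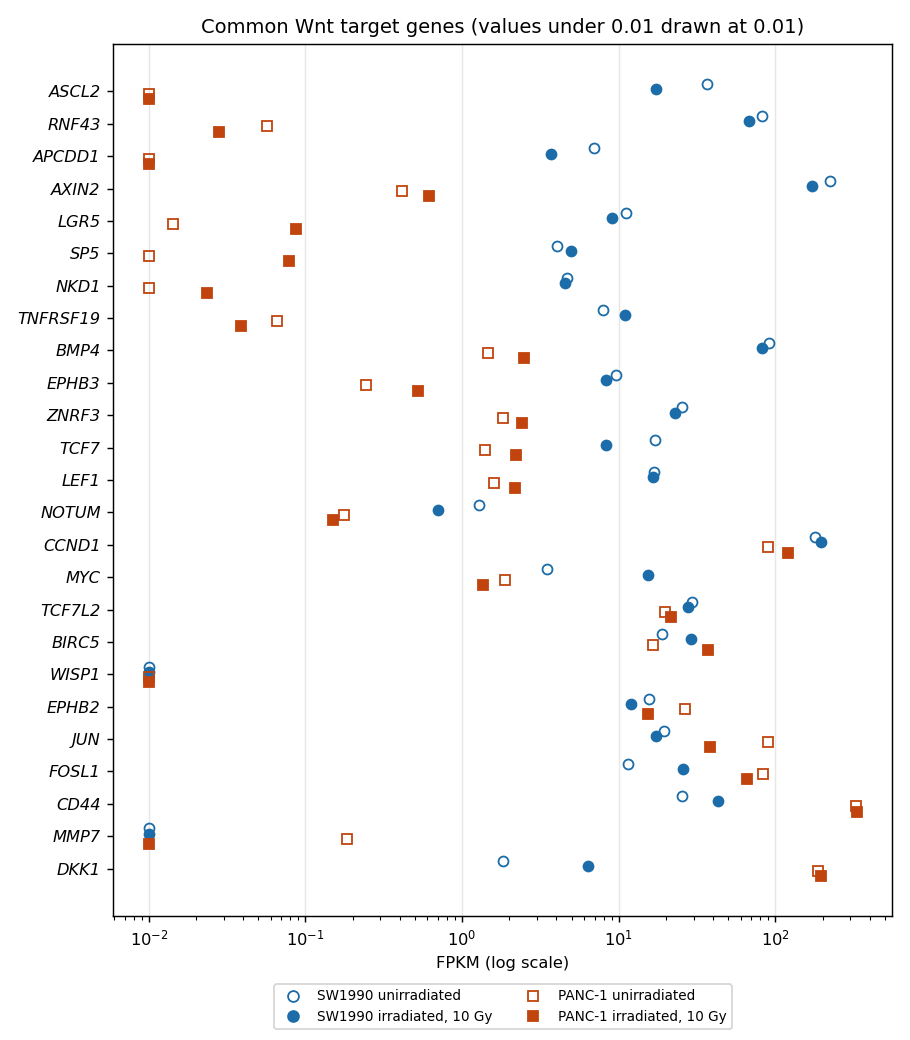
FPKM (log axis, values under 0.01 drawn at 0.01) of the 25 common Wnt target genes in the 4 libraries, with circles for SW1990, squares for PANC-1, open symbols for unirradiated and filled symbols for 10 Gy. Genes are ordered by the difference between the unirradiated libraries, from ASCL2 and RNF43, high in SW1990, to DKK1, high in PANC-1.

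Extracellular inhibitors other than DKK1 were split. SFRP1, a secreted decoy receptor for Wnt proteins, had 0 counts in both SW1990 libraries and 830 and 931 counts in PANC-1, so it was at least 248-fold and 300-fold lower in SW1990. DKK3, a divergent Dickkopf relative, had 2 and 12 counts in SW1990 and 2097 and 1797 counts in PANC-1 (log2 -9.88, 95% interval -12.92 to -8.02, without irradiation and -7.18 after it). Of the 21 inhibitors, DKK1 included, 9 were tested without irradiation, and 4 of them were called higher and 5, with DKK1, lower in SW1990, beside 17.3% and 18.9% of all genes tested. Of these, 4 called higher and 3 called lower reached the expression limit in 1 line alone and so had to differ. DKK2 and DKK4, relatives of DKK1 named after their values were seen, had 0 counts in all 4 libraries, which allows up to the floor of 3 counts in each.

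Of the ligands, 4 of 5 tested were called without irradiation, and of the receptors and coreceptors 7 of 13, or 53.8%, beside 36.2% of all genes. Of these, 3 ligands and 4 receptors reached the expression limit in 1 line alone. WNT7B had 34 and 98 counts in SW1990 and 1068 and 1482 counts in PANC-1 (log2 -4.82 and -3.87), and WNT5B 142 and 27 counts against 339 and 787 (log2 -1.10 and -4.82). FZD7, a Frizzled receptor, was higher in SW1990 (751 and 827 counts against 256 and 405, log2 1.71 and 1.08), while FZD2 (182 and 227 against 422 and 498, log2 -1.05 and -1.08) and the receptor tyrosine kinase ROR1 (290 and 316 against 1049 and 1080, log2 -1.70 and -1.73) were lower. LGR4, an R-spondin receptor, had 874 and 1158 counts in SW1990 and 3732 and 3493 in PANC-1 (log2 -1.94 and -1.54), and LGR6 had 130 and 279 counts against 0 and 14. The line with more RNF43 and ZNRF3 therefore also had more LGR5 and LGR6 but less LGR4. WNT5B did not pass the fit of 4 libraries for the line (adjusted p = 0.0784). With folds taken from FPKM, FZD2 was under 2-fold in both comparisons (log2 -0.82 and -0.97). Genes that reached the expression limit in 1 line alone, such as LGR6 here and DACT2 and NFATC1 below, had to differ between the lines, so their values are a description.

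Inside the cell, the destruction complex list had 23 genes tested without irradiation, with 2 called higher in SW1990 and 3 lower, which is 21.7% beside 36.2% of all genes tested, and a median log2 of -0.02, the same as all genes tested. FBXW11, an F-box protein that recognises phosphorylated beta-catenin, was lower in SW1990 (1590 and 1287 counts against 6382 and 5573, log2 -1.85 and -2.07), as was RNF146, a ligase for axin (226 and 128 against 574 and 437, log2 -1.19 and -1.72). TNKS, a tankyrase that marks axin for removal, was higher (2282 and 2340 against 718 and 819, log2 1.83 and 1.56). With folds taken from FPKM, RNF146 was under 2-fold without irradiation (log2 -0.81, and -1.365 after it). Of Dishevelled partners, DACT2 had 0 counts in SW1990 and 1203 and 736 in PANC-1, at least 359-fold and 237-fold lower in SW1990, and NKD2 was higher in SW1990 (364 and 434 against 106 and 207). In the nucleus, CBY1, an inhibitor of beta-catenin (log2 1.35 and 1.36), and TLE4, a corepressor of TCF proteins (log2 1.33 and 1.40), were called higher in SW1990 in both comparisons.

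Beta-catenin also holds cadherins at cell junctions. CDH1, which encodes E-cadherin, had 9906 and 14345 counts in SW1990 and 59 and 65 counts in PANC-1 (log2 7.55 and 7.83), and CDH3 had 1926 and 2241 counts against 48 and 91 (log2 5.48 and 4.67). CTNNA1, which encodes alpha-catenin, went the other way, with 1012 and 1093 counts in SW1990 and 7941 and 6463 in PANC-1 (log2 -2.81 and -2.52). CTNNB1 itself differed by log2 0.66 and 0.42 in the same libraries. In the branch without beta-catenin, NFATC1, a calcium-regulated transcription factor, had 0 and 11 counts in SW1990 and 694 and 843 in PANC-1. RAC1, a small GTPase, was lower in SW1990 (log2 -1.46 and -1.23) and CELSR2, an atypical cadherin, higher (log2 3.24 and 2.93). Without irradiation CDH1, CDH3 and CELSR2 reached the expression limit in SW1990 alone and so had to differ, and their values in that comparison are a description.

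The genes whose course over the 4 libraries was most like that of DKK1 were AL136164.3, CRIP1, ITGBL1, NFATC1 and PDE10A. Likeness was the Euclidean distance of mean-centred log2(CPM + 0.5) among 17661 genes, with CPM here on TMM-scaled library sizes. The distances of these 5 genes ran from 0.323 to 0.433. AL136164.3, the nearest, had 0 and 12 counts in SW1990 and 971 and 725 counts in PANC-1, and CRIP1 had 2 and 26 counts against 1306 and 1521. All 5 had more counts in both PANC-1 libraries than in both SW1990 libraries, and more in irradiated than in unirradiated SW1990 cells. They were picked for this course, and mean-centring takes the level out. In PANC-1 they ran from 6.88 FPKM (PDE10A, irradiated) to 53.0 FPKM (CRIP1, irradiated), against 185.8 and 194.1 FPKM for DKK1. All 5 lay below 1 FPKM in both SW1990 libraries. With 4 libraries, 2 of them from each line, likeness of this kind is a description.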

How the data were processed

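RNA of 4 libraries was analysed, 1 each of unirradiated and 10 Gy irradiated SW1990 and PANC-1 cells. The authors deposited, for each gene, a read count and an FPKM value. The counts carry no normalization, and neither the counting tool nor its use of strand is given in the sources used here. The submitters' processing notes and the methods name Trimmomatic 0.36, HISAT2 2.0 and StringTie 1.3.3b, and the authors computed the FPKM values with StringTie. Gene coordinates are those of GRCh38, and 96.9% of the 57836 identifiers found in GENCODE release 29 had the same ones. Rows that name no gene (1089 of 59263, 0.453% to 0.635% of the counts) were left out, and 27 names turned into dates were restored. A library label names removal of ribosomal RNA while the protocol names an mRNA kit.

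Pairs of libraries were compared with edgeR's binomTest on the counts (edgeR 4.0.16 in R 4.3.3). Library sizes were scaled by TMM and p-values adjusted after Benjamini-Hochberg. Genes entered when 1 of the 2 libraries reached an FPKM of 1. Limits (q-value below 0.001, fold change above 2, a value of 0 set to 0.01) follow the study's methods, which name DESeq2, not used for pairs here. All 4 libraries were fitted with edgeR's quasi-likelihood test (filterByExpr, line and irradiation as terms), where the common coefficient of variation was 0.218. DESeq2 1.42.0 and limma 3.58.1 served as alternatives. Intervals are exact Clopper-Pearson intervals at 95% and, like floors, cover counting error only. In simulations that changed 200 genes by 4-fold, the pair test recovered 200 of 200 in each of the 4 pairs (15731, 15159, 16626 and 16819 genes) with 0 false calls. These pair simulations held counting error only, as the test assumes, so they give no rate of false calls between replicates. For irradiation, 200 of 200 were recovered when 4 libraries were fitted together (18428 genes), with 10 false calls. That simulation had a smaller variation than the one estimated here and the same change in both lines.

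The 10 genes and the hand-written lists by role were chosen with earlier results of these data known. Beyond the 10 genes, the text names list genes called by irradiation, up to 3 per list called in both line comparisons with an FPKM of at least 5 in a library, by the smaller of the absolute log2 fold changes, and the 5 genes most like DKK1. Promoter windows are those of RefSeq on GRCh38.p14. Protein sequences were not used here. Scaling, the expression filter, the fold limit, an assumed spread between replicates and FPKM in place of counts were varied.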

Additional observations from a re-analysis of the deposited data

Results flagged for a closer look

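WNT5B was called after irradiation in both lines with opposite signs, and the difference between the lines was not tested because each condition has 1 library. Its log2 fold change was -2.37 in SW1990, from 142 to 27 counts, and 1.35 in PANC-1, from 339 to 787 counts. In SW1990 it reached an FPKM of 1 in the unirradiated library alone, so there it had to differ to be tested. From FPKM the values were -1.59 and 0.60, so that the sign in each line was the same and the rise in PANC-1 was under 2-fold.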

How the results depend on the processing

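Counting error alone stands behind the calls between pairs of libraries, and no count of calls says how replicates would vary. With a coefficient of variation of 0.2 assumed between replicates, 97 genes were called by irradiation in SW1990 and 103 in PANC-1, against 670 and 723. With 0.4 the counts were 16 and 10. DKK1 lost its call under both, so 0 of the 10 genes were called in SW1990 in place of 1, and 2 were called at a fold limit of 1.5. Of the list genes in SW1990, 10 were called, 17 at a fold limit of 1.5, 2 with an assumed variation of 0.2 and 0 with 0.4. In PANC-1 6 were called, 12 without the FPKM filter, 15 at a fold limit of 1.5, and 0 with either assumed variation. All genes called at a fold limit of 1.5 were 1495 in SW1990 and 1794 in PANC-1, and without the FPKM filter 887 and 949.

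Between unirradiated lines 6015 genes were called, 3631 with an assumed variation of 0.2 and 1633 with 0.4, and between irradiated lines 5943, 3520 and 1621. The list genes fell from 58 and 63 to 28 in both with 0.4. Of the 10 genes, 7 in place of 4 were called between unirradiated lines at a fold limit of 1.5. Of all 16626 genes tested there, 8472 in place of 6015 were called at that limit. In the fit of 4 libraries 0 genes were called for irradiation, 39 with DESeq2 and 1 with limma. For the line 7 of the 10 genes were called, 5 without filterByExpr and 8 with limma. Over all genes these fits called 7921 of 18180, 6105 of 30227 and 7971 of 17662. Between pairs of libraries ZNRF3 lost its call in both line comparisons at an assumed variation of 0.4. The median of the tested genes among the 10, DKK1 included, was 0.11 in SW1990 and 0.22 in PANC-1. With FPKM in place of counts these medians moved to 0.0194 and 0.371, and with total counts to 0.0485 and 0.308. Between unirradiated lines the median moved from 0.66 to 0.889 with total counts. The cause of these shifts was not tested. Between unirradiated lines the signs of DKK1, RNF43, AXIN2 and ZNRF3 were the same with total counts, DESeq2 size factors and FPKM, and total counts and size factors change only a factor common to all genes, which is small beside these differences.

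No paired analysis was possible because the labels give no replicate numbers, other than the fit of 4 libraries, which has the line as a term and so sets the irradiated against the unirradiated library within each line.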

Other observations

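Among genes of the lists named after their values were seen, the R-spondin genes RSPO1, RSPO2 and RSPO3 and the ligand genes WNT1, WNT2, WNT3A, WNT8A and WNT9B had 0 counts in all 4 libraries. RSPO4 had 0, 4, 0 and 2 counts in unirradiated SW1990, irradiated SW1990, unirradiated PANC-1 and irradiated PANC-1 cells. A count of 0 allows a level of up to the floor of 3 counts, which is 0.129 to 0.168 CPM.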
